A study of Mus musculus with 9 samples.

Results

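The comparison is of Hmgn5 siRNA with control siRNA after 24 h of differentiation in N1E-115 cells, a mouse neuroblastoma line that extends neurites when serum is withdrawn. It rests on 6 of the 9 arrays of the study, chosen by their titles: 3 arrays of cells that received Hmgn5 siRNA and 3 arrays of cells that received control siRNA. Per the labels' protocols, both groups were transfected with an siRNA pool at 80 nM, starved of serum overnight in Neurobasal medium and replated on laminin at 10 µg/ml, and 270 ng of total RNA from whole cells was then amplified for each array. The other 3 arrays are of control siRNA cells at 4 h, which share every step but the time. No array of Hmgn5 siRNA cells at 4 h was analysed here, so the siRNA was compared at 24 h only. Whether a group's samples were separate cultures is not given in the labels, and the p-values therefore measure only how far these samples vary, which may be technical variation.

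Hmgn5 encodes a member of the HMGN family, chromatin proteins that bind the nucleosome core and counteract the compaction that linker histone H1 brings about. It differs from the other family members in its long acidic tail. An siRNA pool of this kind directs the cleavage of the transcript it matches, so the transcript itself is the first check of the labels. Everything beyond it is a readout of cells that received the pool. Effects of less Hmgn5 and other effects of the pool cannot be told apart in this design. N1E-115 cells come from a sympathetic-type tumour, make catecholamines and on laminin attach through integrins while their growth cones advance. The pathways described here therefore run from chromatin proteins and growth factors to adhesion, neurites and transmitter synthesis.

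The 6 arrays at 24 h were alike across all probe sets, with Pearson r from 0.992 to 0.995 for every pair. Control siRNA at 4 h, replicate 2, stood apart from the others, with r from 0.978 to 0.986. It enters the estimate of the spread but not the difference between the groups at 24 h. Of 16 adrenergic neuroblastoma markers, 14 were measured and 12 of these lay above the median of all genes, at a median percentile of 98.2. Their mean log2 level was 9.60 to 9.63 on the control arrays and 9.55 to 9.59 on the Hmgn5 siRNA arrays, which do not overlap. Single markers lay on both sides, from -0.42 for Dbh to 0.34 for Isl1, and Chga, Gata3 and Stmn2 were within 0.01 of their control means. Markers of other cell types were mostly below the median of all genes. Above it were 2 of 13 glial, 3 of 14 fibroblast, 1 of 13 leukocyte and 3 of 13 endothelial markers, and in none of the 4 lists did the mean level per array separate the groups. In RNA from whole cultures, fewer cells of a type and less RNA per cell cannot be told apart.

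The Hmgn5 transcript fell in every array that received its siRNA. Its log2 values were 4.77, 4.66 and 4.69 with control siRNA and 3.53, 3.45 and 3.50 with Hmgn5 siRNA. All 3 knockdown arrays lay more than 1 log2 unit below all 3 controls, and the spread within a group was a small part of that gap. The fall of 1.21 ± 0.09 (SE, limma, adjusted p = 0.00367, 3 arrays a group) left 43.1% of the control signal on the scale of the array. Hmgn5 lay at percentile 24.3 of all genes by mean level, a range where the signal includes background, so this share is of signal and not a measure of the transcript that remained. The call was lost in limma without control 24 h replicate 1 (adjusted p = 0.0558), Hmgn5 siRNA replicate 2 (0.0552) or Hmgn5 siRNA replicate 3 (0.0506), while the difference moved by little. The exact two-sided permutation test on the 6 arrays gave p = 0.1, the smallest value that 3 arrays against 3 can give. Control cells at 4 h had a mean of 4.44.

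Across the genome, 3 of 22180 genes passed at an adjusted p under 0.05 (0.0135%): Hmgn5, which fell (0.00451% of genes fell), and Igfbp5 and Pltp, which rose (0.00902%). Igfbp5 encodes a secreted protein that binds insulin-like growth factors, and Pltp encodes the phospholipid transfer protein of plasma and brain lipoproteins. Their promoters, with that of Hmgn5, are shown because these are the genes that passed the adjusted test. Hmgn5 is the transcript that the siRNA targets, and a role of any of the 3 promoters in these differences was not tested. Each is the 250 bases before the gene's start in RefSeq (GRCm38.p6), 5′ to 3′ on the gene's strand, which is the minus strand for all 3. Capitals mark matches, on either strand, to the E-box CANNTG, the CCAAT box or the GC box GGGCGG.
Igfbp5: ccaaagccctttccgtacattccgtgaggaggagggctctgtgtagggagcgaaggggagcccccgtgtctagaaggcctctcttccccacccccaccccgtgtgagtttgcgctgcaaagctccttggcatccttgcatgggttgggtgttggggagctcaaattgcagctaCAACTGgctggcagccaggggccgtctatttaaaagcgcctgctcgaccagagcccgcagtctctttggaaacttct
Pltp: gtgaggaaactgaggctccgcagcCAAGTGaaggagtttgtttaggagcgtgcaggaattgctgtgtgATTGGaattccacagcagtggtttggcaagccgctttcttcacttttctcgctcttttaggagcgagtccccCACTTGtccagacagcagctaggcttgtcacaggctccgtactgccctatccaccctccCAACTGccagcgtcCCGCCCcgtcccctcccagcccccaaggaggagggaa
Hmgn5: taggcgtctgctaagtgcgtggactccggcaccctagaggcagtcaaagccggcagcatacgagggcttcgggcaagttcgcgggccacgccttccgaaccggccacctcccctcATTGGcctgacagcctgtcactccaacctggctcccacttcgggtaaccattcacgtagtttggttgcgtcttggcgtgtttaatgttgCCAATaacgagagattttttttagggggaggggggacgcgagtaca
The Igfbp5 promoter lies at chr1:72874866-72875115, the Pltp promoter at chr2:164857709-164857958 and the Hmgn5 promoter at chrX:109013381-109013630. They hold 58.8%, 57.6% and 58.0% G and C, against a median of 52.4% over 32851 mouse promoters. The Igfbp5 stretch has 1 E-box, 77 bases before the start. The Pltp stretch has E-boxes at 226, 110 and 51 bases before the start, a CCAAT box at 182 and a GC box at 37, and the Hmgn5 stretch has CCAAT boxes at 135 and 46. These letters are common: an E-box is found in 66.2% of all promoters of this length, a CCAAT box in 33.8% and a GC box in 32.7%. Igfbp5 and Pltp share only the E-box letters among the motifs searched, which also included TATAAA (12.4% of promoters), AGGTCA (14.0%) and TGACG (17.8%), with no match in any of the 3.

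Igfbp5 had log2 values of 8.32, 8.15 and 7.96 with control siRNA and of 9.31, 9.37 and 9.02 with Hmgn5 siRNA. The groups did not overlap, and in both the lowest value was that of replicate 3. The rise was 1.09 ± 0.12 (SE), with a 95% interval from 0.83 to 1.36 and an adjusted p of 0.0356 from limma, which is 2.13-fold. At 4 h control cells had 8.67, 8.51 and 8.75, between the groups at 24 h. Leaving out any 1 of the 9 arrays ended this call (adjusted p from 0.0506 to 0.335), and with only the 6 arrays at 24 h in the limma fit the adjusted p was 0.245. Replicate number as a block also ended this call.

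Pltp was nearly constant within each group: 6.99, 6.95 and 6.95 with control siRNA, and 7.89, 7.94 and 7.81 with Hmgn5 siRNA. The rise was 0.92 ± 0.09 (SE), with a 95% interval from 0.71 to 1.12 and an adjusted p of 0.0296 from limma, or 1.89-fold. Control cells at 4 h had 7.99, 7.59 and 7.85, so at 24 h the Hmgn5 siRNA arrays lay within the range of the 4 h controls and the 24 h controls lay below it. The call was kept without control 4 h replicate 1 (adjusted p = 0.0171) and replicate 2 (0.0019), and was lost on leaving out any of the other 7 arrays, with an adjusted p of up to 0.317. It was also lost with replicate number as a block.

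**Figure D1:**
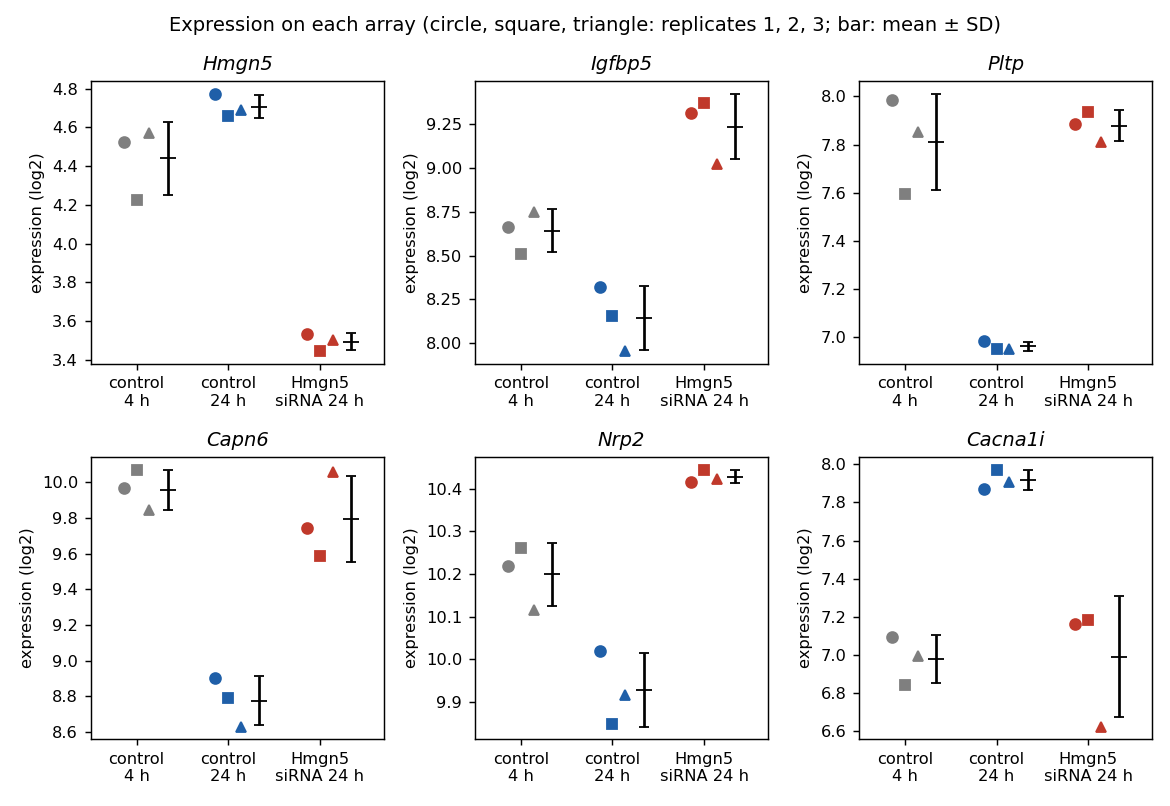
Log2 expression (vertical axis) of 6 genes on each of the 9 arrays, by group (horizontal axis), with circles, squares and triangles for replicates 1, 2 and 3 and bars for the mean ± SD. At 24 h the 3 control arrays (blue) and the 3 Hmgn5 siRNA arrays (red) do not overlap for any of the 6; Hmgn5, Igfbp5 and Pltp passed in limma and Capn6, Nrp2 and Cacna1i did not, and each panel has its own vertical scale.

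Beyond these genes the differences were small. The median absolute difference was 0.062 on the log2 scale, the 95th percentile was 0.23 and the 99th was 0.35, and the median difference over all genes was -0.0019. The median SE was 0.088, so the 95% interval of a typical gene reached 0.20 to either side, or 1.15-fold. For 21460 genes (96.8%) a 1.5-fold change in either direction lay outside the interval. This holds for the array signal. In dim genes the signal includes background, so there the interval does not bound the change of the transcript.

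Past 1.5-fold were 9 genes higher and 9 lower (0.0406% each way), and past 2-fold 2 higher (Igfbp5 and Capn6) and 2 lower (Hmgn5 and Mettl7a3). Those past 1.5-fold besides the ones named further on include Il6, which encodes a cytokine, with a difference of 0.66 and H2az1, which encodes the histone variant H2A.Z, with 0.59; their groups overlap. At 1.2-fold the counts were 299 higher and 383 lower, of which 179 and 225 had groups that do not overlap. In limma 1164 genes had an unadjusted p under 0.05 (5.25%), 531 higher (2.39%) and 633 lower (2.85%). The groups did not overlap for 2722 genes (12.3%), 1475 higher (6.65%) and 1247 lower (5.62%).

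These background shares depended on the level of expression. Among the brightest 7394 genes the groups did not overlap for 19.7%, and 59.5% had a difference above 0, with a median of 0.020. Among the dimmest 7393 the shares were 7.39% and 42.5%, with a median of -0.016. Of the 742 list genes described further on, 458 are among the brightest, 205 in the middle range and 79 among the dimmest. Probe sets that name several genes (1814) or none (16010) gave no call in limma, with 82 and 750 of them at an unadjusted p under 0.05.

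**Figure D2:**
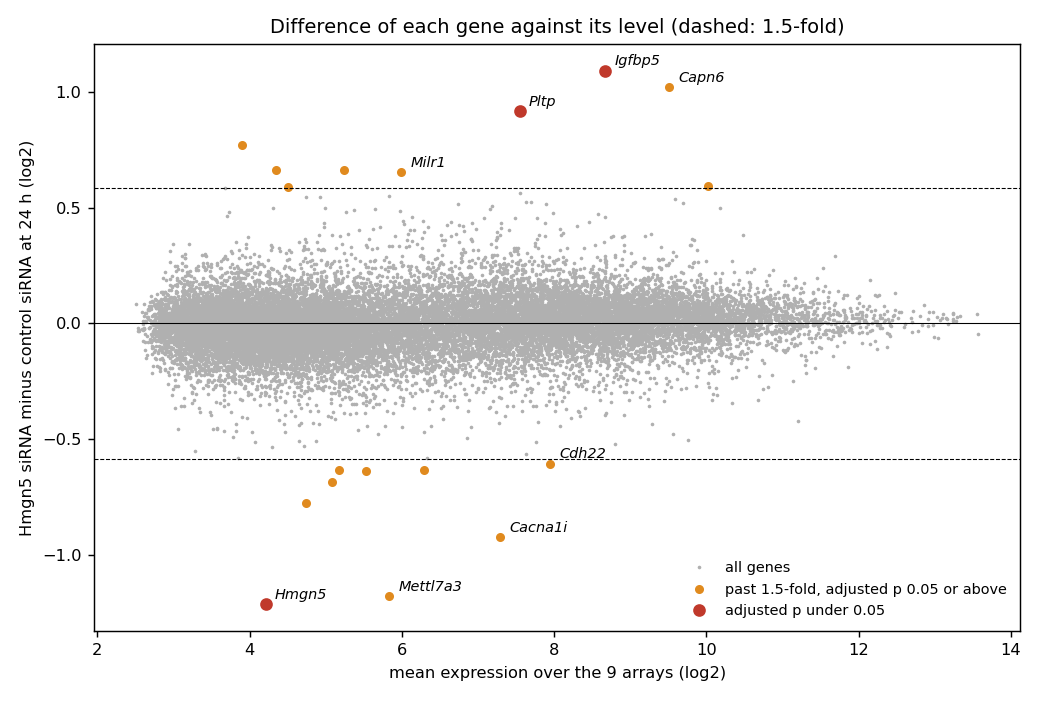
Difference of each of 22180 genes (vertical axis, log2, Hmgn5 siRNA minus control siRNA at 24 h) against its mean log2 expression over the 9 arrays (horizontal axis). Red points passed at an adjusted p under 0.05 and orange points lie past 1.5-fold (dashed lines) without passing; nearly all genes lie within 0.35 of 0, at low and at high levels alike.

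None of the genes in the next 3 paragraphs other than Igfbp5 and Pltp passed the adjusted test, and "higher" and "lower" give the direction of the measured difference only. They are the 15 genes with the largest difference in each direction among those with an unadjusted p under 0.05, groups that do not overlap and a level at or above the median of all genes. On the higher side 316 genes met these conditions and on the lower side 249. These conditions fix that the groups do not overlap, so that is not a result here.

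After Igfbp5, the largest higher difference was that of Capn6, a calpain that lacks protease activity and stabilises microtubules. It had 8.90, 8.79 and 8.63 with control siRNA and 9.74, 9.59 and 10.06 with Hmgn5 siRNA. The difference was 1.02 ± 0.12 (SE, limma, adjusted p = 0.0629), and the 4 h control mean was 9.96. Capn6 passed in 3 alternatives: with a prior that follows expression level (adjusted p = 0.0394), with array weights (0.0285) and with arrays centred on their medians (0.0445). Nrp2, a receptor for class 3 semaphorins, had 10.02, 9.85 and 9.92 against 10.41, 10.44 and 10.42, so its Hmgn5 siRNA arrays were the more tightly grouped. Its difference was 0.50 ± 0.07 (SE, limma, adjusted p = 0.108), and it passed with the prior that follows level (0.0394) and with array weights (0.0393). Cnn2, the actin-binding protein calponin 2, was at 6.84, 6.97 and 7.04 against 7.41, 7.55 and 7.58, a difference of 0.57, and control cells at 4 h were higher still, at 8.20.

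Control cells at 4 h give a further reference for the higher genes, although both comparisons use the same control arrays at 24 h. Lcn2, the siderophore-binding lipocalin 2, had 6.50, 6.64 and 6.79 against 7.14, 7.09 and 7.22, and Pla2g2e, a secreted phospholipase A2, had 7.15, 7.25 and 7.01 against 7.61, 7.62 and 7.75. Both had 4 h control means above either group at 24 h, 7.77 and 8.30. Sgk1, a kinase induced by serum and glucocorticoids, varied more: 7.69, 7.49 and 7.90 against 8.17, 8.03 and 8.42, a difference of 0.51 ± 0.17 (SE). In each group its replicate 3 was the highest and replicate 2 the lowest. The other higher genes were Milr1 (difference 0.65), Kifc5b (0.55), Nxf7 (0.54), Lrrc55 (0.49, and 0.13 on its other probe set), Calcrl (0.48), Ammecr1 (0.48) and Gnpnat1 (0.47). For Calcrl, a receptor subunit for calcitonin gene-related peptide and adrenomedullin, 1 array, Hmgn5 siRNA replicate 3, stood far above the other 5. The 4 h control means of Nxf7 (10.11), Gnpnat1 (9.15) and Ammecr1 (8.18) were above both groups at 24 h. Those of Nrp2 (10.20), Milr1 (5.94), Kifc5b (5.80), Lrrc55 (7.17), Sgk1 (7.78) and Calcrl (5.83) lay between the groups.

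The lower genes were led by Mettl7a3 and by Cacna1i, which encodes a T-type calcium channel. Mettl7a3 had 6.51, 6.49 and 6.17 with control siRNA and 5.30, 5.57 and 4.76 with Hmgn5 siRNA, a difference of -1.18 ± 0.20 (SE, limma, adjusted p = 0.259). It has near-identical paralogs that array probes may not tell apart, as has Kifc5b among the higher genes. Cacna1i had 7.87, 7.97 and 7.91 against 7.16, 7.19 and 6.63, a difference of -0.92 ± 0.14 (SE, limma, adjusted p = 0.208), and its 4 h control mean of 6.98 was close to the Hmgn5 siRNA mean of 6.99. In both genes Hmgn5 siRNA replicate 3 was the lowest array.

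The other lower genes differed by 0.61 or less. Cdh22, a cadherin, had 8.37, 8.27 and 8.28 against 7.79, 7.81 and 7.49, and Plxna4, a plexin that transmits semaphorin signals, had 9.98, 9.85 and 9.89 against 9.48, 9.45 and 9.27. The differences were -0.61 and -0.51. Plce1, a phospholipase C that Ras proteins activate, had 7.86, 7.75 and 7.85 against 7.41, 7.15 and 7.21, and Rap1gap, which switches off the small GTPase Rap1, had 6.43, 6.53 and 6.53 against 6.08, 5.96 and 6.03. In the other lower genes the differences were -0.58 (Cdkl1), -0.51 (Sctr, the secretin receptor), -0.48 (Septin3, a neuronal septin), -0.45 (Tle1, a corepressor, and -0.13 on its other probe set), -0.45 (Ly6a2), -0.44 (Cbfa2t3, a corepressor), -0.44 (Efna3, an ephrin), -0.43 (Mfap2, a microfibril protein) and -0.42 (Paqr8, a membrane progesterone receptor). Cdkl1, a kinase related to cyclin-dependent kinases, passed in limma when control 24 h replicate 3 was left out (adjusted p = 0.0345), an array that had 6.47 where the control mean was 6.85. The 4 h control mean was above both groups at 24 h for Plxna4 (9.97) and Mfap2 (9.45). It was below both for Cacna1i (6.98), Cdkl1 (5.89), Tle1 (6.45) and Efna3 (7.79). For the rest of the 15 lower genes it lay between the groups.

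**Figure D3:**
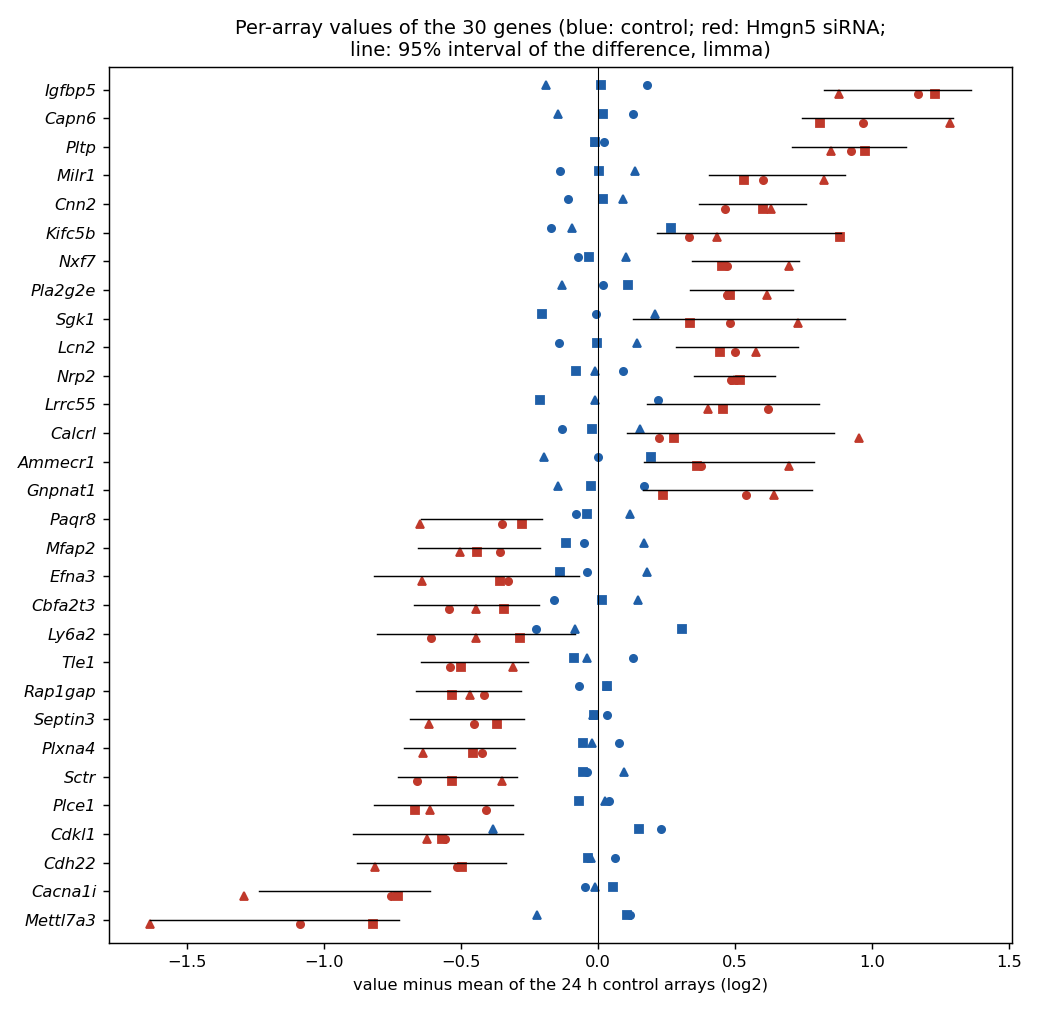
Log2 value relative to the average of the 3 control arrays at 24 h (horizontal axis) for the 15 higher and 15 lower genes (vertical axis) on the 3 control arrays (blue) and the 3 Hmgn5 siRNA arrays (red), with circles, squares and triangles for replicates 1, 2 and 3 and lines for the 95% interval of the difference from limma. Only Igfbp5 and Pltp passed after adjustment; Kifc5b and Calcrl on the higher side and Mettl7a3 and Cacna1i on the lower side each have 1 red point well away from the other red points.

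The pathways were followed in 31 gene lists. Of all genes, 49.2% had a difference above 0, and the member counts can be read against that share and the 59.5% of the brightest genes. Likewise, 12.3% of all genes and 19.7% of the brightest had groups that do not overlap, and 5.25% and 5.65% had an unadjusted p under 0.05. The lists were chosen with earlier results of these data known, so a share above these is no independent support for a list. Where a list's median is close to 0 its sign carries no information: 19 of the 31 medians changed sign under at least 1 alternative. Hmgn5, Igfbp5 and Pltp were the only list members that passed in limma, so in the other 28 lists no member passed. Some lists whose share of non-overlapping groups is not given below also exceeded 19.7%. These were microtubule genes (30.3%, 4 higher and 6 lower) and HMG proteins and linker histones (30%, 2 and 1). Then came endoplasmic reticulum chaperones (26.1%, 3 and 3), growth cone genes (24.4%, 4 and 7) and ribosome biogenesis (24.1%, 7 and 0). Last were immediate-early genes (21.9%, 4 and 3), synaptic vesicle genes (21.4%, 1 and 5) and axon guidance genes (20.9%, 4 and 5).

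Of the HMG proteins and linker histones, 10 were measured. Hmgn5 fell and the other 9 did not pass. Its closest relatives were at 8.23 and 8.35 (Hmgn1, control and Hmgn5 siRNA means) and at 7.39 and 7.46 (Hmgn3), differences of 0.11 and 0.07 with 95% intervals from -0.18 to 0.41 and from -0.08 to 0.21. Hmga2, an architectural protein of immature cells, was lowest after Hmgn5 itself, at -0.19, and Hmgb2, a DNA-bending protein of dividing cells, was highest at 0.15. A 1.5-fold change lay outside the intervals of 8 of the 10. Of 42 chromatin remodelling ATPases and histone-modifying enzymes none passed in limma, none had an unadjusted p under 0.05, and for all 42 a 1.5-fold change lay outside the interval. Their differences ran from -0.15 (Tet1, a DNA demethylase) to 0.24 (Hdac1, a histone deacetylase), with a median of 0.015.

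In the insulin-like growth factor axis, Igfbp5 rose and no ligand or receptor passed. Of 22 members measured, 12 had a difference above 0, with a median of 0.025. The ligands Igf1 and Igf2 differed by 0.11 and 0.06, the receptors Igf1r and Insr by -0.11 and -0.02, and the adaptors Irs1 and Irs2 by 0.04 and 0.05, and all 6 intervals included 0. Among the other binding proteins Igfbp6 was at 7.59, 7.75 and 7.84 against 8.03, 8.08 and 8.21, with groups that do not overlap and a difference of 0.38 (limma, adjusted p = 0.438). Igfbp4 was higher by 0.13, and Igfbp2 was lower by 0.16 with overlapping groups. For 21 of the 22, all but Igfbp5, a 1.5-fold change lay outside the interval.

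Pltp is a target of the liver X receptors, nuclear receptors that sense oxysterols. The other genes of that list did not pass. Of its 21 members measured, 13 had a difference above 0 and the median was 0.0095. The cholesterol exporters Abca1 and Abcg1, textbook targets of these receptors, differed by 0.01 and -0.09, the lipoprotein gene Apoe by 0.04 and the regulator Srebf1 by -0.02. The receptor Nr1h3 itself was higher by 0.20, with an interval from -0.06 to 0.46. Cholesterol synthesis and uptake (19 measured, median 0.017) and fatty acid synthesis (16 measured, median -0.0064) gave 1 and 0 members at an unadjusted p under 0.05 in limma, none passed after adjustment, and for every member of both lists a 1.5-fold change lay outside the interval.

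**Figure D4:**
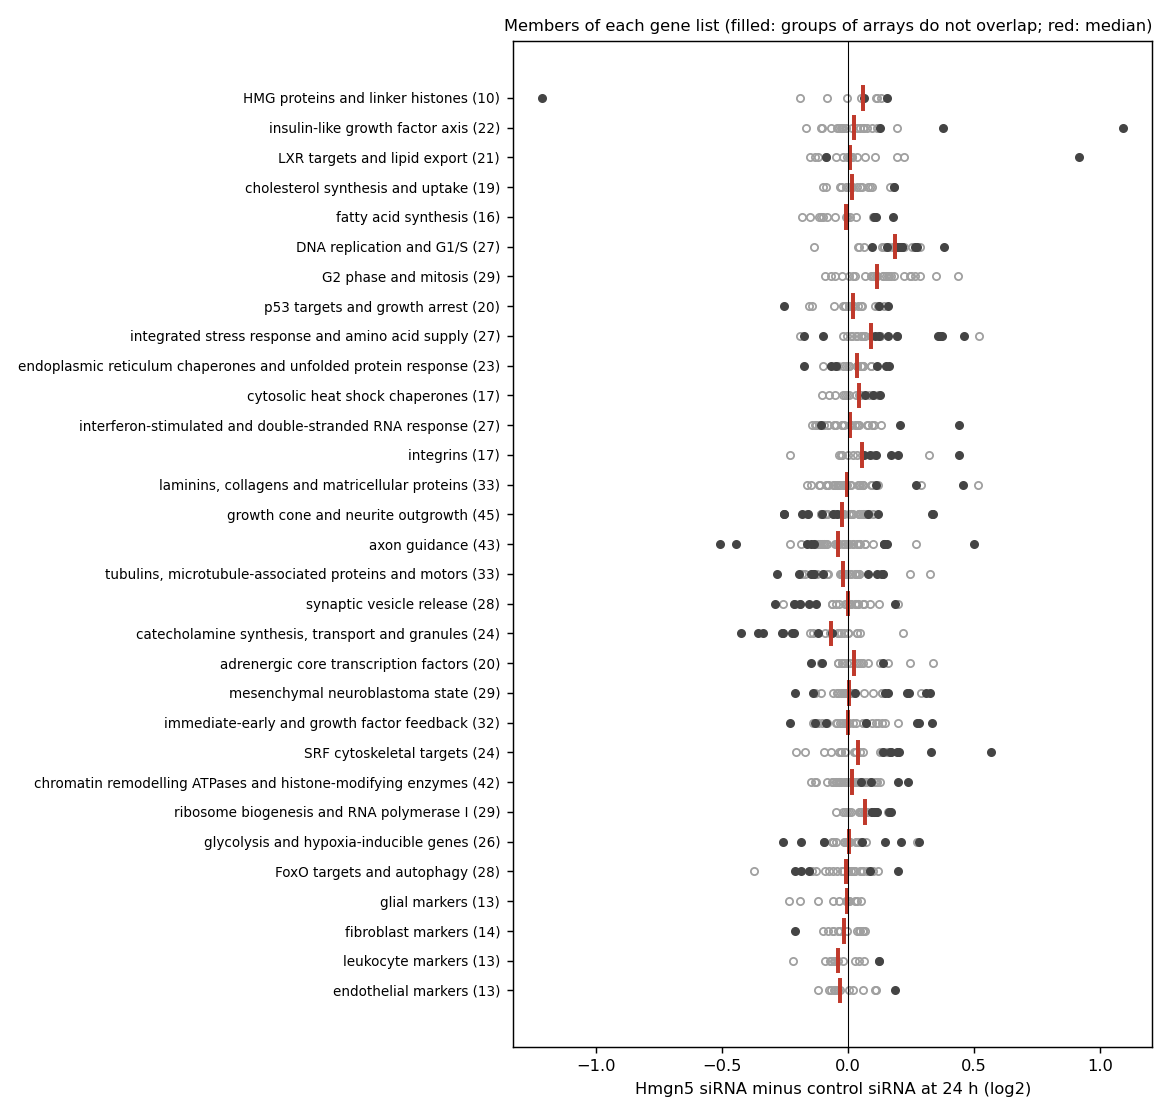
Difference of each measured member (horizontal axis, log2, Hmgn5 siRNA minus control siRNA at 24 h) of the 31 gene lists (vertical axis, number measured in brackets), filled where the groups of 3 arrays do not overlap, with a red bar at each list's median. Hmgn5, Igfbp5 and Pltp lie farthest from 0, and the list medians lie between -0.067 (catecholamine synthesis) and 0.19 (DNA replication).

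Integrins are the receptors through which these cells hold laminin. Of 17 measured, 11 had a difference above 0 and the median was 0.056, and the groups did not overlap for 6 (35.3% of the list against 12.3% of all genes and 19.7% of the brightest), all higher. The median was 0.036 without control 24 h replicate 2 and 0.032 without Hmgn5 siRNA replicate 2. At an unadjusted p under 0.05 in limma were 4 higher and 1 lower, and none passed after adjustment. Itga8, an alpha chain that pairs with beta 1, had 8.24, 8.28 and 8.18 against 8.78, 8.72 and 8.51, a difference of 0.44 (adjusted p = 0.293). The laminin-binding chain Itga6 had 10.30, 10.31 and 10.30 against 10.43, 10.46 and 10.54, a difference of 0.17 with groups that do not overlap. Itgav and Itga9 were higher by 0.20 and 0.32 and Itga4 lower by 0.23, while the common beta chain Itgb1 was at 10.55 in both groups. The groups overlapped for Itga9 and Itga4. By mean level Itga4 lay at percentile 17.2 of all genes, where the signal includes background. Averaged over the 17, the level relative to the 24 h control mean was -0.013, 0.0053 and 0.0074 on the control arrays and 0.045, 0.065 and 0.11 on the Hmgn5 siRNA arrays.

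Matrix genes as a list did not lie to one side: 16 of 33 had a difference above 0, with a median of -0.0029. The 4 members at an unadjusted p under 0.05 in limma were all higher, and none passed. Sparc, a matricellular glycoprotein, had 7.25, 7.24 and 7.36 against 7.78, 7.76 and 7.68, a difference of 0.46 (adjusted p = 0.294), and passed only with array weights. The laminin chain Lamc1 had 9.87, 9.96 and 9.69 against 10.12, 10.10 and 10.10. The other laminin chain among the 4, Lamb2, differed by 0.52 but with overlap, since control replicate 3 (6.02) and Hmgn5 siRNA replicate 3 (6.72) were each the lowest of their group. Fn1, fibronectin, was higher by 0.29.

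For targets of serum response factor, a regulator of actin genes, 15 of 24 differences were above 0 and the median was 0.040. The groups did not overlap for 7 (29.2% against 12.3% of all genes and 19.7% of the brightest), all higher. At an unadjusted p under 0.05 in limma were 5 members (20.8% against 5.25% of all genes), all higher, none passing after adjustment. They were Cnn2, Tpm4 (a tropomyosin, 0.33, and 0.39 on its other probe set), Vcl (vinculin, 0.20), Cald1 (caldesmon, 0.19) and Srf itself (0.17). Tagln, Myl9 and Actb, all classic members, were at -0.21, -0.09 and -0.01 with overlapping groups. In the immediate-early list, some of whose genes that factor also drives, 16 of 32 were above 0 and the median was -0.00021. No member passed in limma, and the 3 at an unadjusted p under 0.05 were the feedback inhibitors Spred1 (0.27) and Spry2 (0.28) on the higher side and the nuclear receptor Nr4a3 (-0.23) on the lower.

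Genes of the growth cone and of neurite outgrowth, the process the cells were undergoing, held no member that passed. Of 45 measured, 20 had a difference above 0 and the median was -0.024. It was -0.012 without control 24 h replicate 1, -0.0047 without Hmgn5 siRNA replicate 1 and on the other side of 0 without control 24 h replicate 3 (0.00066), Hmgn5 siRNA replicate 3 (0.00096) or both (0.017). At an unadjusted p under 0.05 in limma were 1 higher (Klf6, a transcription factor, 0.34) and 4 lower: Dpysl5 (-0.26), Dclk1 (-0.25), Nrn1 (-0.18) and Nrcam (-0.16). Klf6 had 9.79, 9.82 and 9.85 against 10.08, 10.11 and 10.28, and Nrn1, neuritin, had 10.17, 10.20 and 10.22 against 9.99, 9.99 and 10.05. Both are small differences between tightly grouped arrays. Gap43, the growth cone marker, was at 11.09 ± 0.04 (SD) against 11.13 ± 0.04, and Stmn2, a tubulin-binding growth cone protein, was at 11.13 in both groups. A 1.5-fold change lay outside the interval for 43 of the 45.

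Axon guidance genes included members on both sides, Nrp2 at 0.50 and Plxna4 at -0.51, which act as a semaphorin co-receptor and a semaphorin receptor. Of 43 measured, 17 had a difference above 0, the median was -0.038, and 3 higher and 4 lower had an unadjusted p under 0.05 in limma, with none passing. That median was -0.021, -0.019 and -0.023 without control 24 h replicate 3, Hmgn5 siRNA replicate 1 and Hmgn5 siRNA replicate 3. Efna3 had 8.41, 8.31 and 8.63 against 8.12, 8.09 and 7.81. The smaller differences were 0.15 for the netrin receptor Unc5c, 0.14 for Plxna1, -0.15 for Sema6d and -0.16 for Epha4. Among 33 tubulins, microtubule-associated proteins and motors the median was -0.021, with 2 members, Kif1a (-0.28), the motor of synaptic vesicle precursors, and Clasp2 (-0.19), at an unadjusted p under 0.05, and none passed. The microtubule median was -0.0079 without control 24 h replicate 3 and -0.0014 without Hmgn5 siRNA replicate 3. Of the synaptic vesicle genes, 14 of 28 were above 0, and those at an unadjusted p under 0.05 were Rab3c (-0.29, and -0.027 on its other probe set), Vamp1 (-0.26), Syt1 (-0.19) and Snap25 (0.19), again none passing in limma.

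The catecholamine list had the largest share of members below 0 of the 31 lists. Of 24 members measured, 6 had a difference above 0, the median was -0.067, the groups did not overlap for 9 (37.5% against 12.3% of all genes and 19.7% of the brightest), all lower, and 7 (29.2% against 5.25% of all genes), all lower, had an unadjusted p under 0.05 in limma. None passed after adjustment. Dbh, the enzyme that makes noradrenaline from dopamine, had 11.63, 11.53 and 11.68 against 11.27, 11.19 and 11.11, a difference of -0.42 (adjusted p = 0.595). Slc18a2, which loads monoamines into vesicles, had 7.65, 7.54 and 7.76 against 7.23, 7.28 and 7.37, a difference of -0.36 (adjusted p = 0.341). Cpe, a carboxypeptidase of secretory granules, had 9.68, 9.63 and 9.44 against 9.34, 9.42 and 8.97. For all 3 every Hmgn5 siRNA array lay below every control array, and for Cpe the nearest arrays, at 9.44 and 9.42, almost touched.

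Other steps of the same pathway had smaller differences or overlapping groups. Th, the enzyme of the first step, was at 11.25 ± 0.05 (SD) against 11.18 ± 0.19, the granule protein Chga was at 12.20 in both groups, and the other vesicular transporter, Slc18a1, was higher by 0.22 with overlapping groups. Pnmt (-0.26), Qdpr (-0.26), Slc6a2 (-0.22) and Cyb561 (-0.21) completed the 7. Of these, Slc6a2 and Pnmt were dim, at percentiles 24.2 and 42.8 of all genes by mean level. At the level of Slc6a2 the signal includes background. Averaged over the 24, the level relative to the 24 h control mean was 0.0034, -0.0038 and 0.00036 on the control arrays and -0.077, -0.12 and -0.11 on the Hmgn5 siRNA arrays, and it was between -0.31 and -0.20 on the 4 h arrays. The 4 h mean of Dbh was 10.82 and that of Slc18a2 was 7.46.

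Transcription factors that hold the adrenergic state lay on both sides of 0. Of 20 measured, 11 had a difference above 0 and the median was 0.022. Gata3 and Hand2, core factors of the sympathetic lineage, differed by 0.01 and -0.11, and the 1 member at an unadjusted p under 0.05 in limma was Isl1, at 8.41, 8.59 and 8.31 against 8.86, 8.56 and 8.91, with overlap (0.34, not passing). Mycn was higher by 0.25 with an interval from -0.01 to 0.51. Of 29 genes of the mesenchymal neuroblastoma state 15 were above 0, with a median of 0.0041, and the 6 at an unadjusted p under 0.05 were all higher, led by Anxa2 (7.77, 7.85 and 7.83 against 8.16, 8.08 and 8.20), Wwtr1 (0.31) and Fn1, none passing. In that list the groups did not overlap for 9 members, 7 higher and 2 lower (31% against 12.3% of all genes and 19.7% of the brightest).

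DNA replication and G1/S genes were higher as a list. Of 27 measured, 26 had a difference above 0, the median was 0.19, the groups did not overlap for 11 (40.7% against 12.3% of all genes and 19.7% of the brightest), all higher, and 5 (18.5% against 5.25% of all genes), all higher, had an unadjusted p under 0.05, none passing in limma. Cdc6, which loads the replicative helicase, had 6.62 on all 3 control arrays and 6.82, 6.77 and 7.41 with Hmgn5 siRNA, and Mcm4, a helicase subunit, had 9.34, 9.16 and 9.28 against 9.43, 9.37 and 9.80. In both genes replicate 3 was well above the other Hmgn5 siRNA arrays, and it was so for the list: relative to the 24 h control mean the list stood at 0.0040, -0.041 and 0.037 on the control arrays and at 0.072, 0.051 and 0.40 on the Hmgn5 siRNA arrays. Without that array the median was 0.080, with 22 of 27 above 0. The same array had the highest level of mitosis genes, whose part in this result was not tested.

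For mitosis genes replicate 3 stood apart in both groups, and the groups overlapped. Of 29 measured, 25 had a difference above 0 and the median was 0.11, yet the groups overlapped for all 29 and none had an unadjusted p under 0.05 in limma. Relative to the 24 h control mean the list stood at -0.14, -0.15 and 0.29 on the control arrays and at -0.031, -0.055 and 0.47 on the Hmgn5 siRNA arrays, so replicate 3 was the highest array of each group by a wide margin. Taken by replicate number, each Hmgn5 siRNA array lay above the control array of its number. The labels do not say whether the number links samples across groups. Without Hmgn5 siRNA replicate 3 the median was -0.035, with 7 of 29 above 0, and without control replicate 3 it was 0.26, with all 29 above 0. Without both it was 0.079. Of the targets of p53, Cdkn1a, the cyclin-dependent kinase inhibitor p21, was at 10.34 against 10.46 and Btg2 was lower by 0.25, and 13 of 20 were above 0 with a median of 0.019. Btg2 was the 1 of the 20 at an unadjusted p under 0.05, and none passed in limma.

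**Figure D5:**
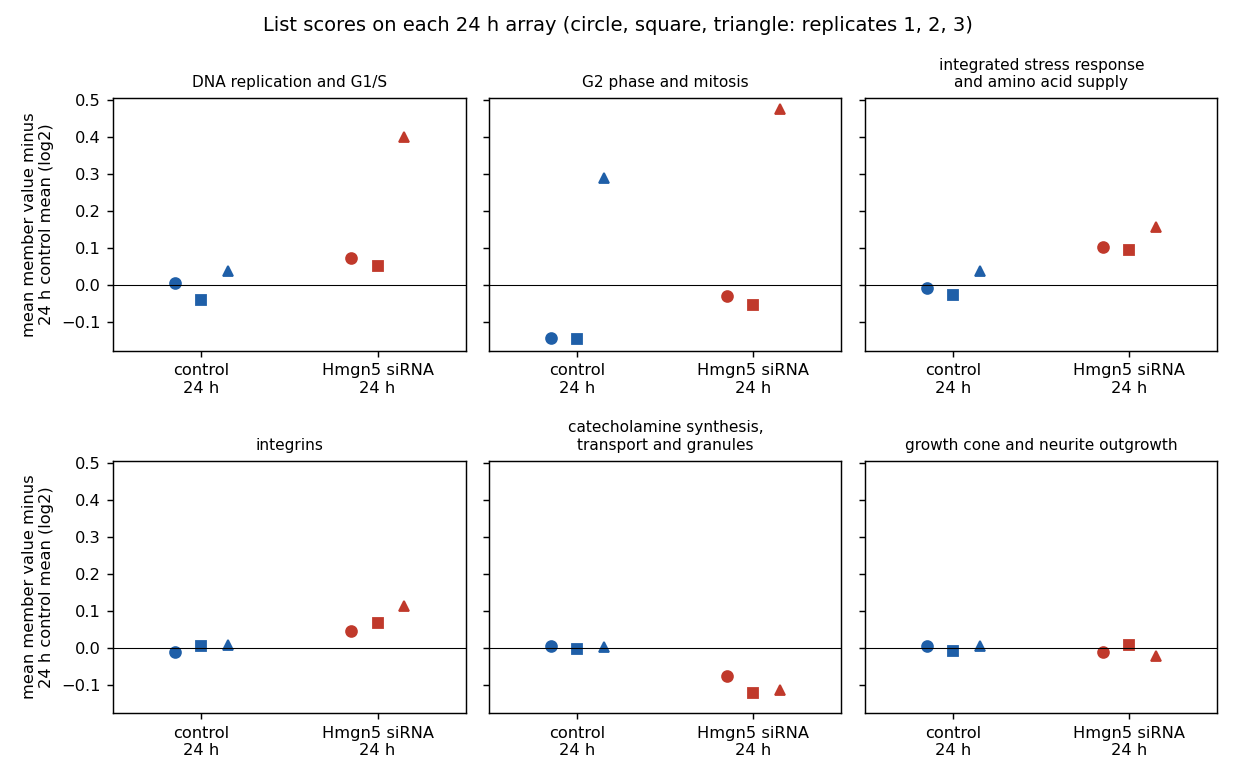
Mean over the members of 6 gene lists of the log2 value minus the 24 h control mean (vertical axis) on each of the 6 arrays at 24 h, by group (horizontal axis), with circles, squares and triangles for replicates 1, 2 and 3. Replicate 3 is far above the others in both groups for mitosis (0.29 and 0.47) and in the Hmgn5 siRNA group for DNA replication (0.40), while the growth cone list stays within 0.03 of 0 on all 6 arrays.

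Of the genes of the integrated stress response and of amino acid supply, 22 of 27 had a difference above 0, with a median of 0.090. At an unadjusted p under 0.05 in limma were 5, all higher, and none passed. The groups did not overlap for 10 members, 8 higher and 2 lower (37% against 12.3% of all genes and 19.7% of the brightest). Nupr1, a stress-induced chromatin protein, had 8.14, 8.20 and 8.45 against 8.61, 8.75 and 8.80, a difference of 0.46 (adjusted p = 0.337). Ddit3, the transcription factor CHOP, had 9.63, 9.49 and 9.44 against 9.87, 9.84 and 9.93, and Cth, which makes cysteine, had 8.61, 8.65 and 8.41 against 8.89, 8.93 and 8.97. Each of the 3 had groups that do not overlap. Slc7a11, the cystine transporter, had 9.17, 8.93 and 9.77 against 9.73, 9.51 and 10.20, so that replicate 3 was the highest in both groups and the groups overlapped.

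Other members of that response had smaller differences: Asns, Slc3a2 and Trib3, all known targets of ATF4, differed by 0.01, 0.03 and 0.13 with intervals that include 0. The list stood at -0.0089, -0.028 and 0.037 on the control arrays and at 0.10, 0.094 and 0.16 on the Hmgn5 siRNA arrays. Chaperones of the endoplasmic reticulum had 14 of 23 above 0 with a median of 0.034 (as low as 0.0067 when control 24 h replicate 2 is left out), and Hspa5, the central chaperone, differed by 0.03. Cytosolic heat shock chaperones had 11 of 17 above 0 with a median of 0.044 (as low as 0.012 when Hmgn5 siRNA replicate 1 is left out). In neither did a member pass in limma, with 2 and 0 at an unadjusted p under 0.05.

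Genes that sense double-stranded RNA or respond to interferon, which a transfected siRNA can engage, gave 14 of 27 above 0 and a median of 0.0074. Usp18, a regulator of interferon signalling, was the 1 member at an unadjusted p under 0.05 in limma, at 6.69, 6.58 and 6.51 against 7.13, 7.02 and 6.96 (0.44, adjusted p = 0.269). Ifit1, Oasl2 and Irf7, classic interferon-stimulated genes, differed by -0.12, -0.13 and 0.09 with intervals that include 0.

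The remaining lists also held no passed member. Ribosome biogenesis had 25 of 29 above 0 with a median of 0.067, and its differences were small, from -0.046 to 0.17, with Utp20 (0.16) the 1 member at an unadjusted p under 0.05 in limma. Glycolysis and hypoxia genes had 14 of 26 above 0, with the glucose transporter Slc2a1 at 9.14, 9.17 and 9.14 against 9.39, 9.40 and 9.52 (0.28, but -0.084 on its other probe set), 1 of 4 members at an unadjusted p under 0.05, all higher. The groups did not overlap for 7 of the glycolysis and hypoxia genes, 4 higher and 3 lower (26.9% against 12.3% of all genes and 19.7% of the brightest). Targets of FoxO factors and autophagy genes had 13 of 28 above 0, and Sesn3 (0.20) was the 1 at an unadjusted p under 0.05. The markers of glia, fibroblasts, leukocytes and endothelium had 5 of 13, 6 of 14, 5 of 13 and 6 of 13 above 0, none with an unadjusted p under 0.05 and none called.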

How the data were processed

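Total RNA of 9 samples was measured on 9 Affymetrix whole-transcript arrays, 3 for each of 3 groups. Each probe set has a deposited log2 expression value, which the authors made with oligo and RMA per the submitters' processing notes (versions not given in the sources used here). RMA includes quantile normalization, which hides a shift common to most genes. Of 41345 probe sets, 23521 name 1 gene, giving 22180 genes; for the 1082 genes with several, the brightest probe set on average was used.

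Group means were fitted to all 9 arrays in 1 model with limma 3.58.1 in R 4.3.3, on the values as deposited, and a gene passed where its p, adjusted across the 22180 genes by Benjamini-Hochberg, was under 0.05. Intervals are at 95%. The arrays' number limits the precision. The code was tested on simulated data. Genes were named if called, if among the 15 largest differences each way (leaving out clone, receptor-family, pseudogene and small RNA symbols, which passed over 2 higher and 1 lower gene), or if among the members of a gene list with the smallest p or with groups apart by over 1.2-fold; other members are given as examples. The 31 lists held 802 genes, of which 742 were measured. The comparison, rule and lists were chosen with earlier results of these data known. Alternatives covered the replicate number as a block, the 24 h arrays alone, the prior, array weights, dim genes left out, median centring, cyclic loess, the choice of probe set and each array left out.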

Additional observations from a re-analysis of the deposited data

How the results depend on the processing

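The 3 genes called became 5 with a prior that follows expression level and is robust, 7 with array weights and 1 when replicate number entered as a block (Hmgn5; Igfbp5 and Pltp then each had an adjusted p of 0.0602). The count was 2 with only the 24 h arrays and 4 with median centring. It was 2 with the dimmest genes left out (Hmgn5 is among them). It was 3 with cyclic loess, with probe sets averaged per gene and with every probe set that names 1 gene. When probe sets that name several genes or none were also fitted and adjusted for, only 1 probe set passed, and it names 1 gene. Leaving out 1 array gave 0 to 2 called genes. Without both arrays numbered 3 at 24 h, an alternative chosen after seeing the data, 0 genes were called.

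The Hmgn5 difference ran from -1.24 to -1.18 when 1 array was left out, with an adjusted p in limma from 0.000209 to 0.0558. It missed the threshold without control 24 h replicate 1 (0.0558), Hmgn5 siRNA replicate 2 (0.0552) or replicate 3 (0.0506), and without both arrays numbered 3 (-1.23, adjusted p = 0.20). Of the 150 genes that the naming rule gave, none changed direction under these alternatives. The rule took genes for groups that do not overlap or for a small p. Where the groups do not overlap, leaving out arrays cannot reverse the sign, so this count is no support for the genes. Genes given only as list examples were not followed singly, and a second probe set of Slc2a1 had the opposite sign. Of the 31 list medians, 19 changed sign in some setting and 12 did not. The block was not used in the main fit because the study's design text names siRNA and time as its factors and no block. The deviations of same-numbered 24 h arrays correlated at 0.184, 0.0891 and 0.285. Between Hmgn5 siRNA and control arrays of other numbers at 24 h the values ran from -0.221 to 0.081. Among the 24 h controls each Hmgn5 siRNA array thus correlated best with the one of its own number (replicate 2 correlated at 0.0921 with the 4 h control of that number).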
